A study of Homo sapiens with 4 samples.

Results

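The genes described are 85 nuclear-encoded genes of the mitochondrial respiratory chain, measured in 2 clones of the established human glioma line U87MG, one with L243P and one with wild-type CD13/APN. They are all entries of the array table whose gene name starts with NDUFA, NDUFB, NDUFC, NDUFS, NDUFV, UQCR, ATP5, COX4, COX5, COX6, COX7 or COX8, or is SDHA, SDHB, SDHC, SDHD or CYC1. The prefixes found 92 probe sets for 85 of 19555 named genes, and where a gene had several probe sets the brightest one stood for it. Of the 85, 76 encode structural subunits: 32 of complex I, 4 of complex II, 8 of complex III, 18 of complex IV and 14 of complex V. The other 9 are the assembly factors NDUFAF1 to NDUFAF4, the supercomplex factor COX7A2L, DMAC2 and DMAC2L (listed under the older names ATP5SL and ATP5S), the copy ATP5F1EP2 and the paralogue ATP5MGL. Some subunits are outside the rule or have no row under a matching name, and these are not analysed here.

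Total RNA of 4 cultures was hybridised to Affymetrix whole-transcript arrays: 2 cultures of a stable clone with the L243P form of membrane alanyl-aminopeptidase (CD13/APN, encoded by ANPEP), which the labels call inactive, and 2 of a clone with wild-type APN. Both construct names include EGFP, and the 2 samples of a clone came from independent experiments. With 1 clone per form, the effect of the form and that of the clone cannot be told apart, and the p-values measure only the spread between experiments within a clone. The comparison asks which transcripts differ with the enzymatic function of APN in glioma cells. Values are linear normalized intensities in whole numbers, with n = 2 per clone. Changes are the log2 ratio of L243P to wild type, given with a standard error (SE), a 95% confidence interval and the Benjamini-Hochberg adjusted p of a limma fit over all 27533 rows. A gene was called at an adjusted p under 0.05. The intensity of a probe set also depends on its probes, so intensities do not rank one gene's transcript against another's, and in total RNA of a culture fewer expressing cells and less RNA per cell cannot be told apart.

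The arrays had median intensities between 46 and 50. Array-to-array correlations of log2 intensity were 0.9948 within L243P, 0.9929 within wild type and between 0.9896 and 0.9913 across the clones. Among glioma and astroglial markers, VIM reached 7335 and 8297 in L243P and 6134 and 7502 in wild type, and CD44 reached 1889 and 1940 in L243P and 1901 and 2240 in wild type. The astrocytic markers S100B and AQP4 were dim, between 12 and 20 on every array, and GFAP is not analysed here. NES and SLC1A3 did not overlap between the clones, at log2 changes of 0.67 and 0.56. Of the leukocyte markers, PTPRC, CD3E and AIF1 lay between 8 and 25 on every array, while CD68, a lysosomal protein that other cells also make, read 2406 and 2569 in L243P and 1932 and 1871 in wild type (log2 change 0.39, adjusted p = 0.108, limma). The endothelial markers VWF, CDH5 and KDR lay between 18 and 37, with KDR at a log2 change of -0.61. Of the muscle markers, MYH2 and CKM lay between 12 and 28, TNNT3 between 74 and 85 and ACTA1 between 174 and 186. Among neuronal markers, SNAP25 read 192 and 173 in L243P and 172 and 144 in wild type, without overlap (log2 change 0.21). RBFOX3 lay between 57 and 74 and SYP between 39 and 44. The oligodendrocyte markers lay between 15 and 30 and the epithelial ones between 16 and 53. The part of these differences in the results was not tested. None of the 26 measured genes of the 7 marker lists passed the test.

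The respiratory chain passes electrons from NADH (complex I) and succinate (complex II) through ubiquinone to complex III, then through cytochrome c to oxygen at complex IV, and complexes I, III and IV pump protons that drive ATP synthesis by complex V. Nearly all subunits are nuclear genes, while a small core set is encoded by mitochondrial DNA and is not analysed here. Complex II has no mitochondrially encoded subunit and is also an enzyme of the citric acid cycle, and glioma cells combine this oxidative route with active glycolysis.

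Promoters of respiratory chain genes are known to share short motifs of the factors NRF1, ETS proteins such as GABP, and YY1. The 250 bases before the transcript start are given for the SDH genes of complex II that had an entry, because this complex held the member nearest to the threshold, and for the 2 complex V genes at the ends of its range. They are RefSeq sequences of GRCh38.p14, written 5′ to 3′ on the strand of the gene, with the letters of a matching motif in capitals. They lie at chr5:218070-218319 on the plus strand for SDHA, chr1:17054033-17054282 on the minus strand for SDHB, chr11:112086623-112086872 on the plus strand for SDHD, chr10:7787927-7788176 on the plus strand for ATP5F1C and chr4:674277-674526 on the minus strand for ATP5ME. SDHC is named only.
SDHA: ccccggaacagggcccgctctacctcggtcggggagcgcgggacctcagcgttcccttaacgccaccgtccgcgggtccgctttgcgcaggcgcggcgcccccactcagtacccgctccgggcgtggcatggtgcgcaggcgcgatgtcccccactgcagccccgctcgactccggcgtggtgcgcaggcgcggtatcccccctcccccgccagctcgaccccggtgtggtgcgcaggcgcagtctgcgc
SDHB: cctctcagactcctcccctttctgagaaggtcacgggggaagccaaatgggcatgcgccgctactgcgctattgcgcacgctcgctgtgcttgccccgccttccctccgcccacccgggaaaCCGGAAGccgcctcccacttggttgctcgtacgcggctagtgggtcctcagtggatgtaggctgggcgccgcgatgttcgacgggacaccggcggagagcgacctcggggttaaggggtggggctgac
SDHD: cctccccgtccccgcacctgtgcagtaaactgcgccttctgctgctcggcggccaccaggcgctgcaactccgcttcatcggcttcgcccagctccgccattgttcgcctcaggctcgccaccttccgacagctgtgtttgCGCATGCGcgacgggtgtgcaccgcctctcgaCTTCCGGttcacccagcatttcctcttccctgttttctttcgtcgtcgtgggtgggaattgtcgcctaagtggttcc
ATP5F1C: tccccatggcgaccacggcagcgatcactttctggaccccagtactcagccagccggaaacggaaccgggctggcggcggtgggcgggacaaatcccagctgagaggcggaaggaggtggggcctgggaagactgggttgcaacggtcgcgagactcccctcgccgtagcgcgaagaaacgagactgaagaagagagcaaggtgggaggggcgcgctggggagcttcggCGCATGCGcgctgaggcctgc
ATP5ME: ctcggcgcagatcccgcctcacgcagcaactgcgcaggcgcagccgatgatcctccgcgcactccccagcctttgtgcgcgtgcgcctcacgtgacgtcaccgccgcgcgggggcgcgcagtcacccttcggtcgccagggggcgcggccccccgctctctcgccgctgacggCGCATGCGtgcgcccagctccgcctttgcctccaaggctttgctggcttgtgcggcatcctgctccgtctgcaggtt

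The motifs searched were CGCATGCG for NRF1, which reads the same on both strands, CCGGAAG for ETS and AAGATGGCG for YY1, each on both strands from 250 bases before to 50 bases after the start. Matches of different motifs were counted separately, whether or not they overlapped. ATP5F1C holds the NRF1 letters from 21 to 14 bases before its start. SDHD holds them from 109 to 102 bases before its start, and ETS letters on the opposite strand from 77 to 71 bases before it. SDHB holds ETS letters from 128 to 122 bases before its start and a YY1 match that begins 11 bases after it. ATP5ME holds the NRF1 letters from 77 to 70 bases before its start and has an ETS match on the opposite strand that begins 4 bases after the start, outside the printed stretch, and the SDHA window held none of the 3 letter strings. Of the 85 members, 68 had a promoter entry, and 32 of them (47.1%) held at least 1 motif, against 21.7% of 13980 genes on the arrays with an entry. By motif, the share was 16.2% of members against 3.39% of array genes for NRF1, 29.4% against 16.9% for ETS and 11.8% against 3.43% for YY1. The 32 members with a motif had a median log2 change of 0.03 (from -0.52 to 0.45), and the 36 without had a median of 0.06 (from -0.40 to 0.27). A match describes letters in a window and is not a binding site, and the absence of a match says nothing about a factor.

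No respiratory chain member passed the test. Over all rows, 211 were called (94, or 0.341%, higher and 117, or 0.425%, lower in L243P), which is 0.766%, so a share of 0 of 85 is near this background. At an unadjusted p under 0.05 there were 8 members, against 11.8% of all rows, and the smallest adjusted p among the members was 0.0516 (limma), for SDHC. The median log2 change over the 85 members was 0.04, with the middle 50% of members between -0.05 and 0.13, and over all rows it was -0.01. Positive changes were found for 52 members and negative ones for 33, and the extremes were ATP5ME (-0.52) and SDHC (0.79). Of all 27533 rows, 12267 had a positive and 14839 a negative change. Among the 12095 rows with a mean intensity of at least 64, the counts were 5840 and 6254.

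The intervals show how large a difference the 4 arrays leave room for. For 79 of 85 members (92.9%) the whole 95% interval lay within 1.5-fold in either direction, against 73.1% of all rows and 79.2% of the 12095 rows with a mean intensity of at least 64. The changes of 79 members were smaller than 0.25 on the log2 scale (92.9%, against 79.6% of all rows and 77.8% of the brighter rows). The median SE of the members was 0.09, against 0.14 for all rows and 0.11 for the brighter rows. Of the 85, 76 had a mean of at least 64, and the other 9, of which 6 are tissue-restricted or paralogous complex IV genes, lay lower. Both L243P arrays lay above both wild-type arrays for 24 members (28.2%) and below both for 14 (16.5%), and the groups overlapped for 47. Over all rows, 34.0% showed no overlap, 15.4% with L243P above and 18.6% with L243P below, against 23.1% in each direction among the brighter rows, where the members' combined share was 47.4% against 46.1%. At a mean of 64 or above, the members' combined share was thus near that of all rows. By direction, 30.3% of these members lay above and 17.1% below, against 23.1% of rows each. The rows were not matched to the members in brightness beyond that limit.

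**Figure D1:**
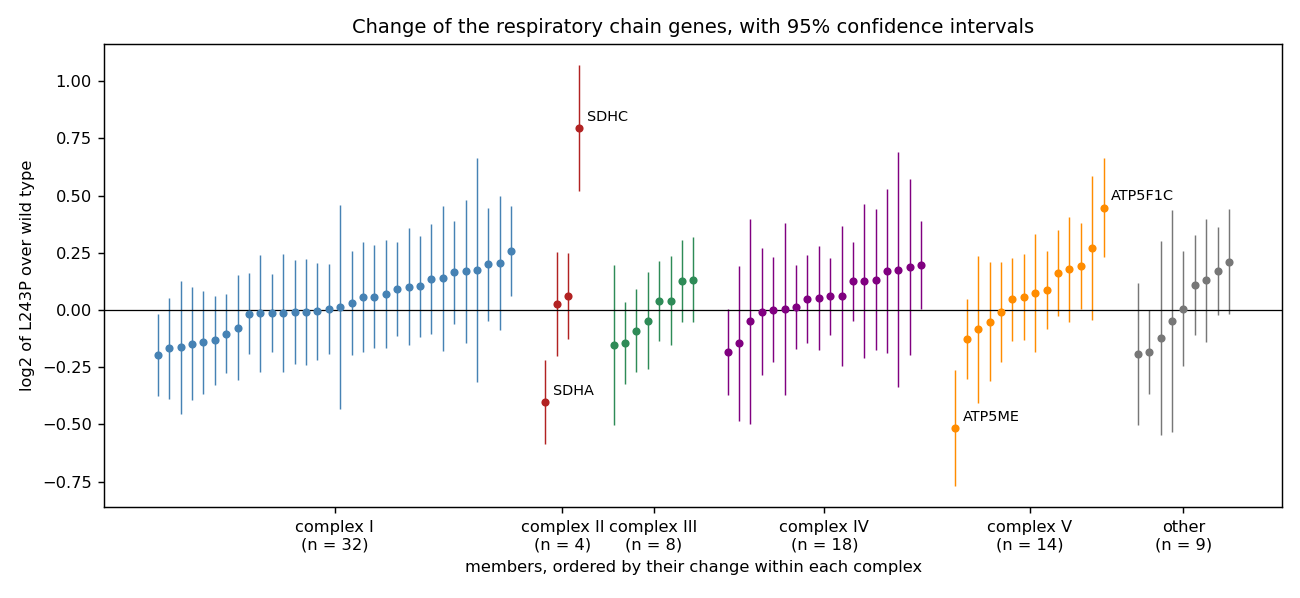
Log2 of L243P over wild type (vertical axis) for each of the 85 members, grouped by complex and ordered by change along the horizontal axis, with 95% confidence intervals of the limma fit as bars. Most points lie within 0.25 of 0, and SDHC (0.79), ATP5F1C (0.45), SDHA (-0.40) and ATP5ME (-0.52) lie farthest out.

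Complex II, succinate dehydrogenase, had the widest spread among its 4 subunits. SDHC, which encodes a membrane anchor with the heme and ubiquinone sites, read 196 and 202 in L243P and 123 and 107 in wild type. Both L243P arrays were above both wild-type arrays, at means of 199 ± 4.24 and 115 ± 11.3 (SD, n = 2 each). The log2 change was 0.79 (SE 0.11, interval 0.52 to 1.07), a fold of 1.73, and it missed the threshold at an adjusted p of 0.0516 (limma). The authors' deposited table gives SDHC a fold of 1.7 and a proportion of false positives (pfp, from a rank product test) of 0.145, and SDHC was the only member (1 of 85) at or under the authors' limit of 0.15, against 0.949% of all probe sets, so that this count is near the background. Its position against the threshold depended on the fit: the adjusted p ranged from 0.00336 with arrays centred on their medians to 0.648 with the replicate number as a block (limma), while the log2 change stayed between 0.69 and 0.90. With arrays centred on their medians, SDHC was the 1 member called, where 2.16% of all rows were called, and among the brighter 50% of rows 4 members were called (SDHC, SDHA, ATP5ME and ATP5F1C), where 3.55% were.

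SDHA, the flavoprotein that oxidises succinate, read 1094 and 1137 in L243P and 1423 and 1526 in wild type. Here both L243P arrays were below both wild-type arrays, at means of 1115.5 ± 30.4 and 1474.5 ± 72.8 (SD, n = 2 each). The log2 change was -0.40 (SE 0.08, interval -0.59 to -0.22), and wild type was 1.32-fold above L243P, with an adjusted p of 0.106 (limma). SDHB, the iron-sulfur subunit bound to SDHA, read 1077 and 1092 in L243P and 999 and 1082 in wild type, a log2 change of 0.06 (interval -0.13 to 0.25, adjusted p = 0.851, limma), and its groups overlapped. SDHD, the other membrane anchor, read 523 and 460 in L243P and 476 and 487 in wild type, a log2 change of 0.03 (interval -0.20 to 0.25, adjusted p = 0.966, limma). Its brightest probe set lies, in identifier order, among probe sets of chromosome 1 genes, whereas SDHD is a chromosome 11 gene. The SDHD probe set that lies among chromosome 11 genes read 293 and 275 in L243P and 267 and 245 in wild type, a log2 change of 0.15. The 4 subunits of this complex thus gave 1 higher value, 1 lower value and 2 with overlapping groups, none past the threshold. The share without overlap was 50%, against 34.0% of all rows and 46.1% of rows at 64 or above, so this count is near the background of the brighter rows.

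**Figure D2:**
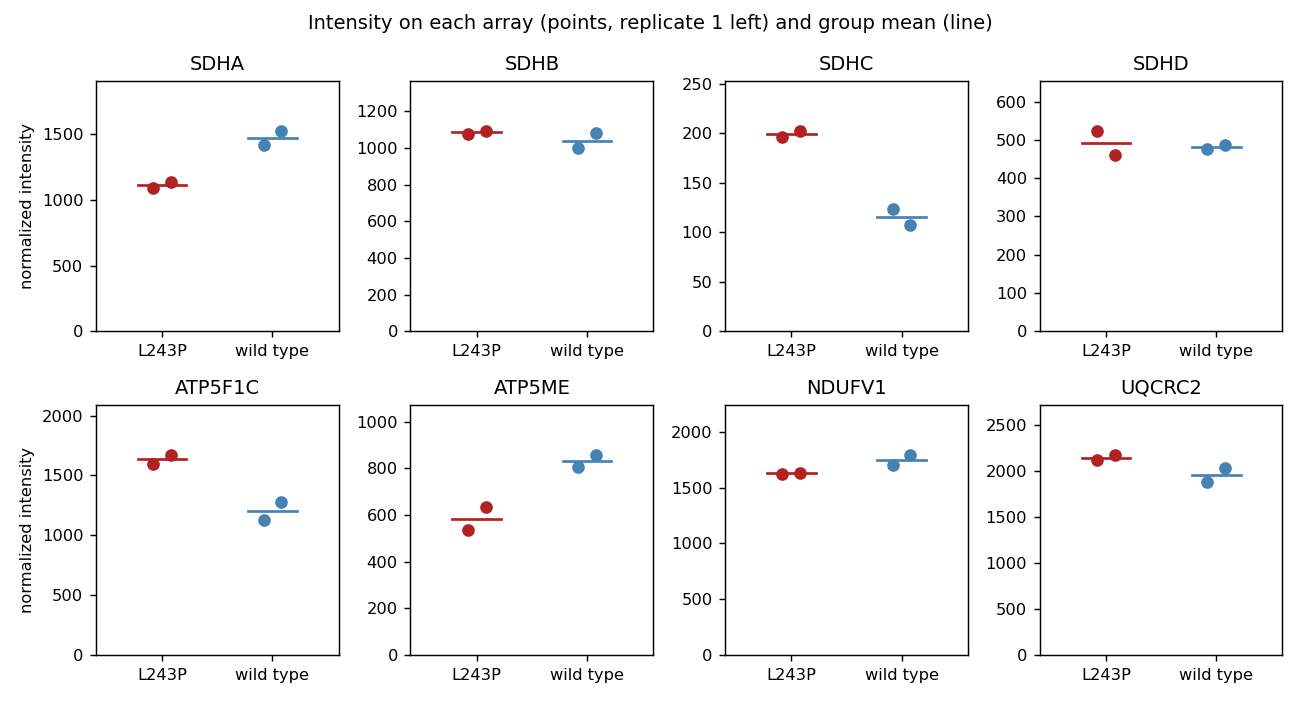
Normalized intensity (vertical axes, linear, from 0) of 8 members on each array, with L243P on the left and wild type on the right of each panel, points for the 2 replicates and a line for the group mean. SDHC, ATP5F1C and UQCRC2 lie higher in L243P, SDHA, ATP5ME and NDUFV1 lower, and the SDHB and SDHD groups overlap.

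Complex I, the NADH dehydrogenase, had 32 members with a median log2 change of 0.01, from -0.20 to 0.26. For 31 of them the 95% interval lay within 1.5-fold in either direction. L243P was above wild type on both arrays for 6 members and below for 5, and the groups overlapped for 21. The share without overlap was 34.4%, against 34.0% of all rows and 46.1% of rows at 64 or above. The lowest change was that of NDUFA9, a subunit of the arm's junction with the membrane, which read 617 and 640 in L243P and 713 and 726 in wild type (log2 change -0.20, SE 0.07, adjusted p = 0.387, limma). NDUFA13, also known as GRIM19, read 419 and 459 in L243P and 513 and 473 in wild type (log2 change -0.17, adjusted p = 0.57, limma). At the other end, the accessory subunit NDUFA2 read 503 and 492 in L243P and 403 and 430 in wild type, without overlap (log2 change 0.26, SE 0.08, adjusted p = 0.285, limma). NDUFA12 read 275 and 248 in L243P and 208 and 247 in wild type, so that the lowest L243P value and the highest wild-type value were nearly equal (log2 change 0.20, adjusted p = 0.606, limma).

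The catalytic subunits of complex I showed small differences. NDUFV1, which binds NADH and flavin and had the brightest probe set of the complex, read 1622 and 1634 in L243P and 1704 and 1794 in wild type (log2 change -0.10, interval -0.28 to 0.07, adjusted p = 0.681, limma). NDUFS1, the largest iron-sulfur subunit, read 955 and 961 in L243P and 856 and 989 in wild type, with L243P between the wild-type replicates (log2 change 0.06, adjusted p = 0.887, limma). NDUFV2, an iron-sulfur partner of NDUFV1, read 541 and 574 in L243P and 570 and 542 in wild type (log2 change 0.00, interval -0.19 to 0.20). That NDUFV2 probe set lies among probe sets of chromosome 19 genes, and the one at its own chromosome 18 locus gave a log2 change of 0.05. The iron-sulfur subunits NDUFS7 and NDUFS8 had log2 changes of 0.10 (216 and 230 in L243P, 221 and 195 in wild type) and -0.08 (293 and 329 in L243P, 324 and 331 in wild type), with overlapping groups in each case.

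Complex III, the cytochrome bc1 complex, had 8 members with a median log2 change of 0.00, from -0.15 to 0.13, and all 8 intervals lay within 1.5-fold. Both L243P arrays were higher for 3 members and lower for 3, and the groups of 2 overlapped. The share without overlap was 75%, against 34.0% of all rows and 46.1% of rows at 64 or above. It rests on 8 members, and the smallest adjusted p among them was 0.536 (limma). UQCRC2, a core subunit with the brightest probe set of this complex, read 2116 and 2178 in L243P and 1884 and 2039 in wild type (log2 change 0.13, interval -0.05 to 0.32, adjusted p = 0.599, limma). Its partner UQCRC1 read 1007 and 1033 in L243P and 973 and 1010 in wild type (log2 change 0.04, adjusted p = 0.898, limma). CYC1, cytochrome c1, which hands electrons to cytochrome c, read 1113 and 1075 in L243P and 1178 and 1238 in wild type (log2 change -0.14, interval -0.32 to 0.04, adjusted p = 0.536, limma). The core and the electron-carrying subunit thus differed in sign, and each interval included 0.

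UQCRFS1, the Rieske iron-sulfur protein, read 1200 and 1220 in L243P and 1244 and 1334 in wild type (log2 change -0.09, adjusted p = 0.747, limma). UQCRH, the hinge protein, read 1345 and 1374 in L243P and 1207 and 1286 in wild type (log2 change 0.13, adjusted p = 0.607, limma). Both values come from probe sets that lie, in identifier order, away from the gene: among chromosome 22 genes for UQCRFS1, a chromosome 19 gene, and among chromosome 1 genes about 30.5 Mb from UQCRH itself. The probe sets at their own loci read 201 and 295 in L243P and 209 and 250 in wild type for UQCRFS1 (log2 change 0.09), and 154 and 213 in L243P and 166 and 183 in wild type for UQCRH (log2 change 0.06). The sign of UQCRFS1 therefore depends on the probe set, and the groups overlapped at both own-locus probe sets. The smaller subunits UQCRB, UQCR11 and UQCRQ had log2 changes of -0.15, -0.05 and 0.04.

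Complex IV, cytochrome c oxidase, had 18 members here, with a median log2 change of 0.06, from -0.18 to 0.20. Positive changes were found for 14 and negative ones for 4, against 12267 and 14839 over all rows. L243P was higher on both arrays for 4 members (22.2%, against 15.4% of all rows and 23.1% of the brighter rows) and lower for 1 (COX6A1), and the groups of 13 overlapped. COX6A1, the ubiquitous counterpart of the heart and muscle isoform COX6A2 and the brightest probe set of this complex, read 1575 and 1698 in L243P and 1902 and 1812 in wild type (log2 change -0.18, SE 0.08, adjusted p = 0.442, limma). COX8A read 683 and 735 in L243P and 629 and 608 in wild type (log2 change 0.20, SE 0.08, adjusted p = 0.417, limma). COX6B1, which joins the monomers of the enzyme, read 949 and 918 in L243P and 849 and 863 in wild type (log2 change 0.12, adjusted p = 0.594, limma). The nuclear subunits that contact the catalytic core, COX4I1 (means of 250 ± 14.1 in L243P and 249.5 ± 9.19 in wild type, SD, n = 2 each) and COX5A (1462 and 1590 in L243P, 1441 and 1512 in wild type), had log2 changes of 0.00 and 0.05.

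Several complex IV subunits have tissue-restricted isoforms, and these were mostly dim in both clones. COX4I2, the isoform of COX4I1 known from lung and from hypoxia, read 47 and 69 in L243P and 54 and 47 in wild type (log2 change 0.18, SE 0.21, adjusted p = 0.849, limma). COXFA4L2, listed as NDUFA4L2 and known as a hypoxia-induced paralogue of NDUFA4, read 47 and 48 in L243P and 45 and 46 in wild type (log2 change 0.06, adjusted p = 0.915, limma). NDUFA4 itself read 343 and 328 in L243P and 307 and 370 in wild type (log2 change -0.01, interval -0.28 to 0.27). The muscle isoform COX7A1 lay between 20 and 24 on the 4 arrays, with a log2 change of 0.00, whereas its ubiquitous counterpart COX7A2 read 607 and 617 in L243P and 455 and 634 in wild type (log2 change 0.19, SE 0.16, adjusted p = 0.753, limma). The wild-type replicates of COX7A2 thus lay farther apart than the group means. COX6A2, COX6B2, COX7B2 and COX8C had log2 changes of 0.13, 0.17, -0.14 and -0.05, with overlapping groups for all 4.

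Complex V, the ATP synthase, had 14 members with a median log2 change of 0.07, from -0.52 to 0.45, and no member passed the test. ATP5F1C, the gamma subunit that turns inside the catalytic head, read 1598 and 1673 in L243P and 1124 and 1279 in wild type, without overlap. Its means were 1635.5 ± 53 and 1201.5 ± 110 (SD, n = 2 each), a fold of 1.36 and a log2 change of 0.45 (SE 0.09, interval 0.23 to 0.66, adjusted p = 0.119, limma). ATP5ME, subunit e, which helps ATP synthase dimers form in the inner membrane, read 534 and 632 in L243P and 804 and 858 in wild type. Wild type was 1.43-fold above L243P (583 ± 69.3 in L243P, 831 ± 38.2 in wild type, SD, n = 2 each), with a log2 change of -0.52 (SE 0.10, interval -0.77 to -0.26, adjusted p = 0.122, limma).

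The remaining head and stalk subunits of complex V lay closer to 0. ATP5F1A, the alpha subunit, read 1371 and 1436 in L243P and 1299 and 1399 in wild type (log2 change 0.06, interval -0.13 to 0.25). ATP5F1D, the delta subunit of the central stalk, read 753 and 762 in L243P and 843 and 812 in wild type (log2 change -0.13, adjusted p = 0.594, limma). ATP5PB, the b subunit of the peripheral stalk, read 271 and 283 in L243P and 205 and 257 in wild type (log2 change 0.27, SE 0.13, adjusted p = 0.501, limma). ATP5PO, which ties the peripheral stalk to the head and had the brightest probe set of all members, read 2057 and 2217 in L243P and 2050 and 2085 in wild type (log2 change 0.05, interval -0.14 to 0.23). The 3 genes of the proton-carrying c subunit, which encode the same mature protein, had log2 changes of 0.19 for ATP5MC1 (702 and 675 in L243P, 587 and 619 in wild type), 0.07 for ATP5MC2 and -0.05 for ATP5MC3, and the groups of ATP5MC1 alone did not overlap. Of the 14 members, 12 had an interval within 1.5-fold in either direction, all but ATP5F1C and ATP5ME.

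Among the 9 other members, none had an interval beyond 1.5-fold. COX7A2L, which helps join complexes III and IV, read 928 and 972 in L243P and 812 and 876 in wild type (log2 change 0.17, adjusted p = 0.489, limma). DMAC2, a complex I assembly factor, read 479 and 477 in L243P and 551 and 534 in wild type (log2 change -0.18, adjusted p = 0.428, limma). ATP5F1EP2, a copy of ATP5F1E whose probes may also bind that transcript, read 487 and 512 in L243P and 405 and 459 in wild type (log2 change 0.21, adjusted p = 0.469, limma). ATP5F1E itself had a log2 change of 0.16, with 505 and 502 in L243P and 460 and 440 in wild type.

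The spread between replicates was unequal in the 2 clones. The log2 difference of replicate 2 over replicate 1 exceeded 0.25 in either direction for 3 members in L243P and for 12 in wild type. Among the 12095 rows at 64 or above, it did so for 1686 in L243P and for 3185 in wild type. The inequality was therefore not particular to the members, whose shares were smaller in both clones. In wild type, replicate 2 was above replicate 1 for 57 of 85 members, at a median difference of 0.07, against 0.05 over all rows at 64 or above. In L243P it was above for 53 of 85, at a median difference of 0.03. The widest wild-type gaps were those of the assembly factor NDUFAF1 (221 and 338, against 271 and 258 in L243P), of NDUFB6 (182 and 275, against 269 and 237 in L243P) and of NDUFB3 (179 and 262, against 216 and 221 in L243P). Without wild-type replicate 2 the median log2 change of the 85 members was 0.08, against 0.04 with all arrays, and over the arrays left out in turn it ranged from 0.00 to 0.08. The log2 change of NDUFAF1, -0.05 with all arrays, ran from -0.35 to 0.26 over the same settings, so its sign rests on single arrays.

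**Figure D3:**
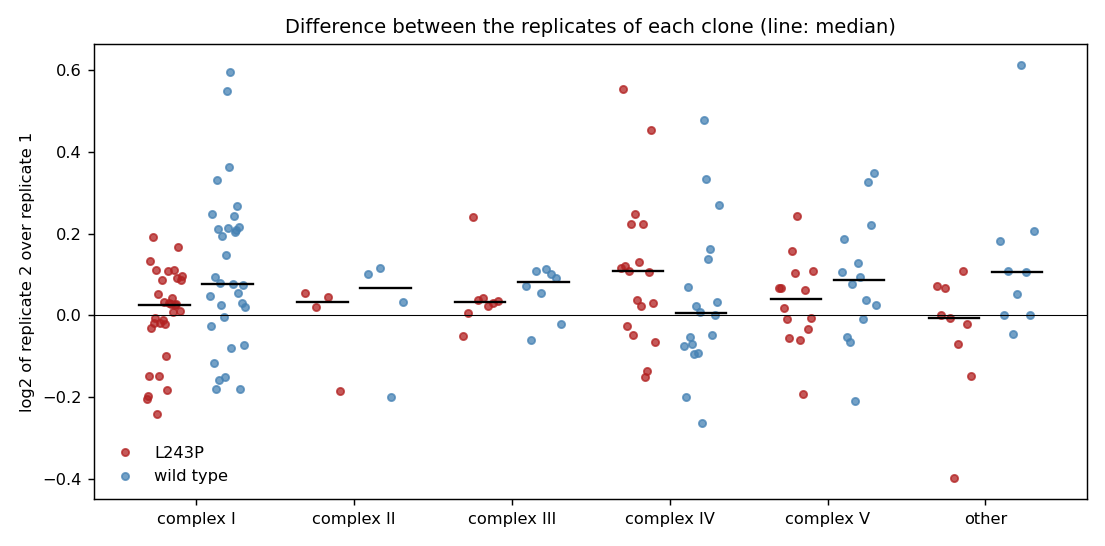
Log2 of replicate 2 over replicate 1 (vertical axis) for each member, by complex, with L243P points on the left and wild-type points on the right of each complex and a line at the median. Wild-type points reach 0.61 (NDUFAF1), and 12 of them lie beyond 0.25 in either direction, against 3 L243P points.

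The chromosomal neighbourhood moved with several of these values. For each gene, the median log2 change of up to 10 named genes on each side in RefSeq order was taken as the change of its neighbourhood. Genes on chromosome 4 had a median log2 change of -0.145 over 688 genes, of which 22.8% had a positive change, while the medians of the other autosomes and the X chromosome lay between -0.07 (chromosome 8) and 0.04 (chromosome 1). ATP5ME, on chromosome 4, had a neighbourhood median of -0.17, and after subtracting it the log2 change was -0.35 (adjusted p = 0.146, limma). The other chromosome 4 members, NDUFC1 and COX7B2, had log2 changes of -0.01 and -0.14 against neighbourhood medians of -0.13 and -0.12. SDHA, on chromosome 5, had a neighbourhood median of -0.14, and its change after subtraction was -0.27 (adjusted p = 0.154, limma). Among smaller changes, COX6A1 had a log2 change of -0.05 after subtraction against -0.18 before it, CYC1 -0.05 against -0.14, ATP5PB 0.16 against 0.27, NDUFA13 -0.09 against -0.17 and DMAC2 -0.10 against -0.18. These changes shrank, while others grew, such as NDUFA2 (0.30 against 0.26), COX8A (0.25 against 0.20) and UQCRC2 (0.18 against 0.13). The median over the members with a neighbourhood value was 0.07 after subtraction, against 0.04 over all members before it. For complex IV the medians were 0.125 and 0.06. SDHC and ATP5F1C had neighbourhood medians of 0.09 and -0.03, and after subtraction both passed the threshold, at 0.71 (adjusted p = 0.0243, limma) and 0.47 (adjusted p = 0.0354, limma), where 2.19% of 18147 rows passed. A copy number difference between the clones was not measured, and its part in these values was not tested.

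The lists of assembly factors, citric acid cycle genes, ribosomal proteins, carriers and pores, biogenesis regulators and hypoxia-regulated genes had medians between -0.08 and -0.01. In that order they held 41, 15, 69, 18, 15 and 8 measured genes. There were 2 calls in all, 1 among the assembly factors and 1 among the hypoxia-regulated genes. Both were lower in L243P, where 0.425% of all rows were called lower, and 2 calls are too few to compare with that share. Of 50 listed assembly factors, 41 were measured, with a median log2 change of -0.01, and 1 of 41 fell. COX18, which inserts part of the mitochondrially encoded subunit MT-CO2 into the inner membrane, read 128 and 133 in L243P and 215 and 226 in wild type (log2 change -0.76, SE 0.10, adjusted p = 0.0438, limma). COX18 lies on chromosome 4 with a neighbourhood median of -0.23, and after subtracting it the change was -0.53 (adjusted p = 0.0418, limma). COX20, a chaperone of the same subunit, read 234 and 242 in L243P and 168 and 172 in wild type (log2 change 0.49, adjusted p = 0.101, limma), at a neighbourhood median of 0.20. The 15 measured genes of the citric acid cycle and pyruvate dehydrogenase had a median of -0.05, from IDH3A (-0.21) to SUCLG2 (0.34), with 0 called. Only 1 of them was at an unadjusted p under 0.05 (limma), against 11.8% of all rows. Among 4 further electron carriers and ATP synthase proteins that the prefixes miss, CYCS (cytochrome c) read 435 and 437 in L243P and 378 and 509 in wild type (log2 change -0.01), and ATP5IF1, the inhibitor of the ATP synthase, had a log2 change of 0.08.

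Over all rows, 11.8% had an unadjusted p under 0.05 (limma), the share to set beside the counts of the next lists. The 69 mitochondrial ribosomal protein genes had a median of -0.03, with 0 called and 11 at an unadjusted p under 0.05 (limma). They ran from MRPS18C (-0.63, with wild-type replicates at 62 and 137) to MRPL24 (0.52, with 887 and 824 in L243P and 564 and 627 in wild type, adjusted p = 0.0815, limma). The 18 measured carriers and pores had a median of -0.05, from SLC25A4 (-0.37) to TOMM20 (0.46), with 0 called and 3 at an unadjusted p under 0.05 (limma). The 15 measured regulators of mitochondrial biogenesis had a median of -0.07, with 0 called and 4 at an unadjusted p under 0.05 (limma). PPARGC1A, the coactivator PGC-1alpha that induces respiratory chain genes, read 81 and 75 in L243P and 117 and 127 in wild type (log2 change -0.65, SE 0.12, adjusted p = 0.0975, limma). It also lies on chromosome 4, with a neighbourhood median of -0.54, and after subtraction its log2 change was -0.10. TFB1M, which modifies mitochondrial ribosomal RNA, was at the other end with a log2 change of 0.36 (adjusted p = 0.296, limma), and NRF1 and TFAM had log2 changes of -0.14 and -0.07.

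Of 10 genes that hypoxia-inducible factor is known to regulate and that act on the respiratory chain, 8 were measured, with a median log2 change of -0.08, and 1 of 8 fell. In a list this short a single call cannot be set against the 0.425% of all rows called lower. BNIP3, an outer membrane protein that promotes mitophagy, read 379 and 392 in L243P and 729 and 783 in wild type (log2 change -0.97, SE 0.08, adjusted p = 0.0142, limma). PDK1, the kinase that turns off pyruvate dehydrogenase, read 202 and 188 in L243P and 284 and 313 in wild type (log2 change -0.61, SE 0.10, adjusted p = 0.0721, limma). BNIP3L, a relative of BNIP3, read 762 and 757 in L243P and 996 and 914 in wild type (log2 change -0.33, adjusted p = 0.176, limma). The members of that list inside the respiratory chain, COX4I2 and COXFA4L2, had values of 0.18 and 0.06, with COX4I2 at -0.10 without L243P replicate 2, and HIGD1A, another gene of the list, had a value of 0.17. The calls of COX18 and BNIP3 were not made with limma's default prior, with the replicate number as a block or with any array left out, settings in which 0 of 27533 rows were called.

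**Figure D4:**
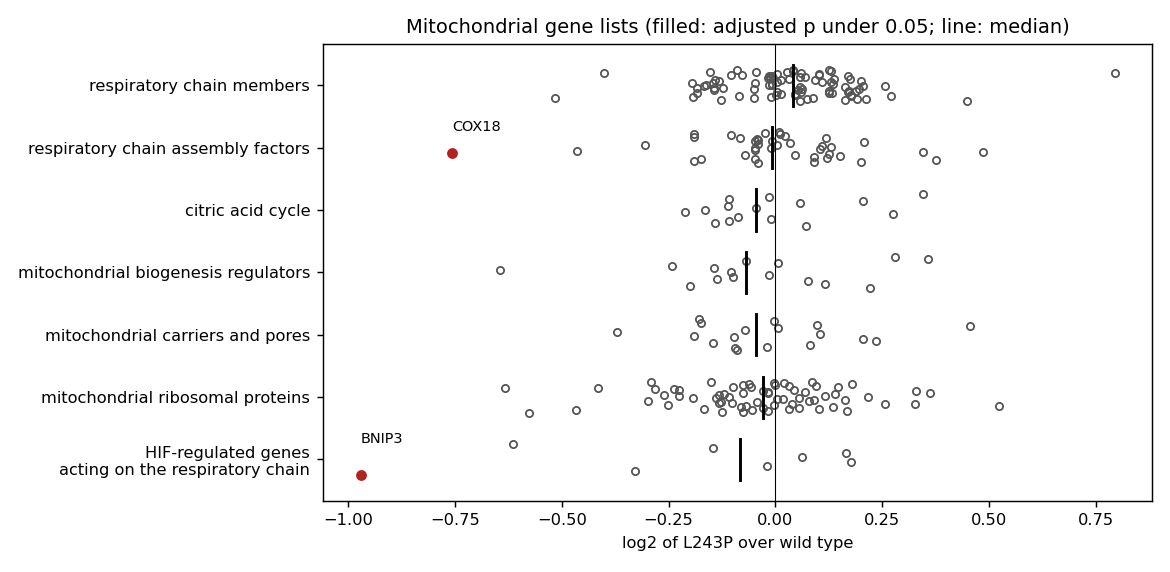
Log2 of L243P over wild type (horizontal axis) for the genes of each mitochondrial list (rows), with open points for genes that did not pass the test, filled points for those that did and a line at the median. The medians lie between -0.08 and 0.04, and the filled points are COX18 and BNIP3.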

How the data were processed

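RNA of 2 L243P and 2 wild-type cultures was measured on 4 arrays; no depth belongs to them, and precision is limited by that number. The submitters' processing notes name RMA, and the authors' deposited description places its background correction, quantile normalization and summarisation per probe set in Rosetta Resolver. Software version and genome build: not given in the sources used here. Deposited normalized intensities are linear and rounded by the authors to whole numbers. The authors' deposited table also gives a signed fold change and a pfp, both treated as a score, and p-values, which were not used.

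Of 29085 probe sets, 21122 carried a gene name; 15 names of digits were treated as none. Of 19607 usable names, 18201 matched RefSeq (GRCh38.p14), used for symbols, gene order and promoter sequence. The brightest probe set stood for a gene. Intensities were log2 transformed with no pseudocount and fitted with limma 3.58.1 (R 4.3.3, trend = TRUE, robust = TRUE), with Benjamini-Hochberg adjustment over 27533 rows. The fit was run on simulated data with planted changes larger than that of any member, so its power for smaller changes was not tested. An exact permutation test of 2 against 2 cannot go below 0.333 (two-sided), so none was used. Promoter windows were searched for fixed letters; the NRF1 letters are a core taken after a longer form had been searched. The members, gene lists, main fit and naming rule were chosen with earlier results of these data known. By that rule, all members are accounted for by complex, and those named are, in each complex, the 2 highest and the 2 lowest changes among members with a mean intensity of at least 64 and the brightest, with the isoform pairs and the ends and calls of each other list; NDUFS1, NDUFV2, NDUFS7, NDUFS8, UQCRC1, COX5A, COX20, CYCS, ATP5IF1, BNIP3L, PDK1 and other genes named for their role were chosen after their values were seen. Same-numbered replicates gave a correlation of deviations of -0.164, so the numbers were not taken to pair the samples. The alternatives were another prior, centring, normalization, filter, pseudocount and probe set rule, the subtracted neighbourhood, the replicate block and each array left out.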

Additional observations from a re-analysis of the deposited data

How the results depend on the processing

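Against 211 rows called, 596 were called with arrays centred on their medians (338 higher and 258 lower, against 94 and 117), 489 among the brighter 50% of rows and 397 with the neighbourhood change subtracted. The prior degrees of freedom (median) were 18, 5.23 and 6.32 in these settings, against 3.95. The count was 0 with limma's default prior (3585 rows at an unadjusted p under 0.05), and from 0 to 0 with each array left out. Among the members, in place of 0, centring called 1 (SDHC), the brighter 50% called 4 (SDHC, SDHA, ATP5ME and ATP5F1C) and the subtraction called 2 (SDHC and ATP5F1C), each time in the direction reported; the share of all rows called was 2.16%, 3.55% and 2.19%. The cause was not tested.

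The fit with the replicate number as a block called 0 rows (1992 at an unadjusted p under 0.05), as did crossed pairs, chosen after seeing the data (3068). Same-numbered samples had deviations correlated at -0.164. The prior degrees of freedom (median) were 1.03 with the block and 0.939 with crossed pairs, against 3.95 in the main fit. A block also uses up a residual degree of freedom, so a call lost under it is no measure of a weaker effect.

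With an array left out, the median of all members ranged from 0.0042 to 0.0814, that of complex I from -0.0446 to 0.0763. Own-locus probe sets, an alternative also chosen after seeing the data, gave 0.106 for complex II and 0.0411 for complex III, centring gave 0.0277 for complex III, and the subtraction gave 0.125 for complex IV. The other 104 values of medians and counts moved by less than the spread or by less than 1.5 times, and of the single genes, 512 values kept their side of the threshold and 7 passed it. Rounding limits dim genes most: 836 rows had no spread within either group.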
